A study of Mus musculus with 8 samples.

Results

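The genes of the interferon response and of MHC class I antigen presentation were examined in liver RNA of Rap1 -/- and wild-type mice. The set was a list of 36 symbols, of which 34 were found on the array through the accession of a probe, with 43 probes in all. Mx1 and Mx2 were not found in this way. All 34 genes were well above background on all 8 arrays, and they were 34 of 14066 genes tested. Each gene was read by its brightest probe, and 9 of the genes had more than 1 probe. For the comparison within the list, 16 genes were taken as gamma-type (GTPases, MHC class I presentation and immunoproteasome) and 12 as type I effectors, and 6 transcription factors and chemokines belonged to neither.

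The 4 Rap1 -/- and the 4 wild-type livers came from mice aged 10 weeks on a C57BL6/129SV background (90%:10%), with 1 mouse to an array. Rap1, the product of Terf2ip, is a subunit of the telomere-binding shelterin complex, and the study asked which liver genes change when it is missing. Per its methods, the knockout is constitutive and affects the whole body, since floxed Rap1 mice were bred to mice with an EIIa-driven cre that acts in the early embryo. The labels give no sex and no feeding state. The study describes its young profiled mice as females and profiled livers both without fasting and after it, so whether these mice had fasted is unknown here.

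Interferons are secreted proteins that signal through JAK kinases and STAT factors. Type I interferons act mainly through a complex with STAT2 and IRF9 that binds the interferon-stimulated response element (ISRE), and they switch on antiviral effectors in most cells. Interferon gamma, made mainly by T and NK cells, acts through the gamma-activated site (GAS), and it raises immunity-related GTPases, immunoproteasome subunits and the machinery that loads peptides on MHC class I. Many of the genes answer both kinds of interferon, so the division into gamma-type and type I genes is one of degree.

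The promoters of the 4 genes with the smallest unadjusted p are shown first, because these genes carry the largest differences relative to their error. They are 300-base windows from RefSeq (GRCm38.p6), running 5′ to 3′ on the gene's own strand, with 250 bases before the annotated start and 50 after it. Capitals mark matches on either strand to 2 motifs, the ISRE core (GAAA, any 2 bases, GAAA) and the GAS core TTCNNNGAA. Oasl1 lies at chr5:114922990-114923289 on the plus strand, Igtp at chr11:58199306-58199605 on the plus strand, Ifih1 at chr2:62646206-62646505 on the minus strand and B2m at chr2:122147437-122147736 on the plus strand.
Oasl1: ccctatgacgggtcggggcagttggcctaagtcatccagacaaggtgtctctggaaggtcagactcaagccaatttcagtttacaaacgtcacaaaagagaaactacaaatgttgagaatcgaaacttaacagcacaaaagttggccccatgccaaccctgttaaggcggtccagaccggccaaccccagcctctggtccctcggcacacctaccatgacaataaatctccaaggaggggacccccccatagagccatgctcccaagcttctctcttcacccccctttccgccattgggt
Igtp: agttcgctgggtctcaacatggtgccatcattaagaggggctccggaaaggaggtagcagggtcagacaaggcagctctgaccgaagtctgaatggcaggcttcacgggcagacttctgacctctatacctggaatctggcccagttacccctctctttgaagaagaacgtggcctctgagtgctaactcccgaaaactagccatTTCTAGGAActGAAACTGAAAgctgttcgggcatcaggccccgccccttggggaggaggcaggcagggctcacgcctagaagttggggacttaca
Ifih1: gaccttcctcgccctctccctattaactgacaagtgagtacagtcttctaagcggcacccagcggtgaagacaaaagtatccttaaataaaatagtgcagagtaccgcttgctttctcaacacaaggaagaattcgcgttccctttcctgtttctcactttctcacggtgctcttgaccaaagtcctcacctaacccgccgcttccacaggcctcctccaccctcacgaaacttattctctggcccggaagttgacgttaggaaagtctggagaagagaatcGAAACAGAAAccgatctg
B2m: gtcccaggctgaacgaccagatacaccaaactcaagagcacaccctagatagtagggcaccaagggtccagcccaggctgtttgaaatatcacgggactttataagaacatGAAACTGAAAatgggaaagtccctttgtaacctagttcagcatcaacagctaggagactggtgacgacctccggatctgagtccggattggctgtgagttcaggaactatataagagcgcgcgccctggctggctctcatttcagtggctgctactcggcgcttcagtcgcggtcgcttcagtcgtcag

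The Igtp window held a GAS match beginning 45 bases before the start and an ISRE match beginning 34 bases before it, and the matches did not overlap each other. The ISRE match of B2m began 139 bases before the start and that of Ifih1 32 bases after it. The Oasl1 window held neither core. Of the 34 genes, 30 had a promoter in the RefSeq table, and 15 of these (50%) held the ISRE core, against 3.99% of all 27025 genes with a promoter. The GAS core was in 7 of the 30 (23.3%), against 9.55% of all genes. The ISRE core was in 5 of 5 GTPase genes and 7 of 11 type I effectors, but in 1 of 5 class I presentation genes and in none of the 3 immunoproteasome genes. The 15 genes with the core had a median log2 fold change of -0.05 and the 15 without it of -0.11. These matches describe letters in a window and do not identify binding sites.

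Facts of the whole experiment bear on every value. Values are log2 of the processed signal less the 75th percentile of the array, and a log2 fold change is Rap1 -/- minus wild type. The main Terf2ip probe was not well above background on 4 of 4 Rap1 -/- arrays and was at least 18.96-fold lower there than in wild type (limma, adjusted p = 7.09e-06 over probes). A second Terf2ip probe was well above background on all 8 arrays and read 1.20 higher in Rap1 -/- livers (adjusted p = 0.127 by limma over probes). All 8 hepatocyte markers were well above background on all 8 arrays. Each of the 2 slides carried 2 arrays of each genotype (replicates 1 and 2 on slide 1, replicates 3 and 4 on slide 2). Wild-type samples always took array positions 1 and 2 and Rap1 -/- samples positions 3 and 4, so position and genotype cannot be told apart. In bulk RNA, fewer cells of a type and less RNA per cell cannot be told apart either.

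None of the 34 genes differed between genotypes at an adjusted p of 0.05 (limma, Benjamini-Hochberg over all tested genes), where 0.0142% of all genes did. At an unadjusted p of 0.05, 2 of the 34 passed, against 6.36% of all genes. These were Igtp, lower in Rap1 -/- livers (2.35% of all genes were lower by this rule), and Oasl1, higher in Rap1 -/- livers (4.01% of all genes were higher). Adjusted p-values of the 34 genes ran from 0.770 to 1.00. For none of the 34 were the arrays of the genotypes fully apart, against 4.31% of all genes. In the main fit the standard errors lay between 0.09 and 0.27. The 95% confidence intervals of all 34 genes lay inside a 2-fold change in either direction in this fit. The lowest bound was -0.96 (Igtp) and the highest 0.68 (Oasl1). These intervals are gene by gene, without adjustment over the 34. Whether the 2-fold bound holds under other processing was not tested. Igtp, close to it here, was at -0.54 with quantile normalization of the processed signal and -0.55 with cyclic loess. Of the 34 log2 fold changes, 26 were below 0, against 43.9% of all genes, and their median was -0.11, against 0.02 over all genes.

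**Figure D1:**
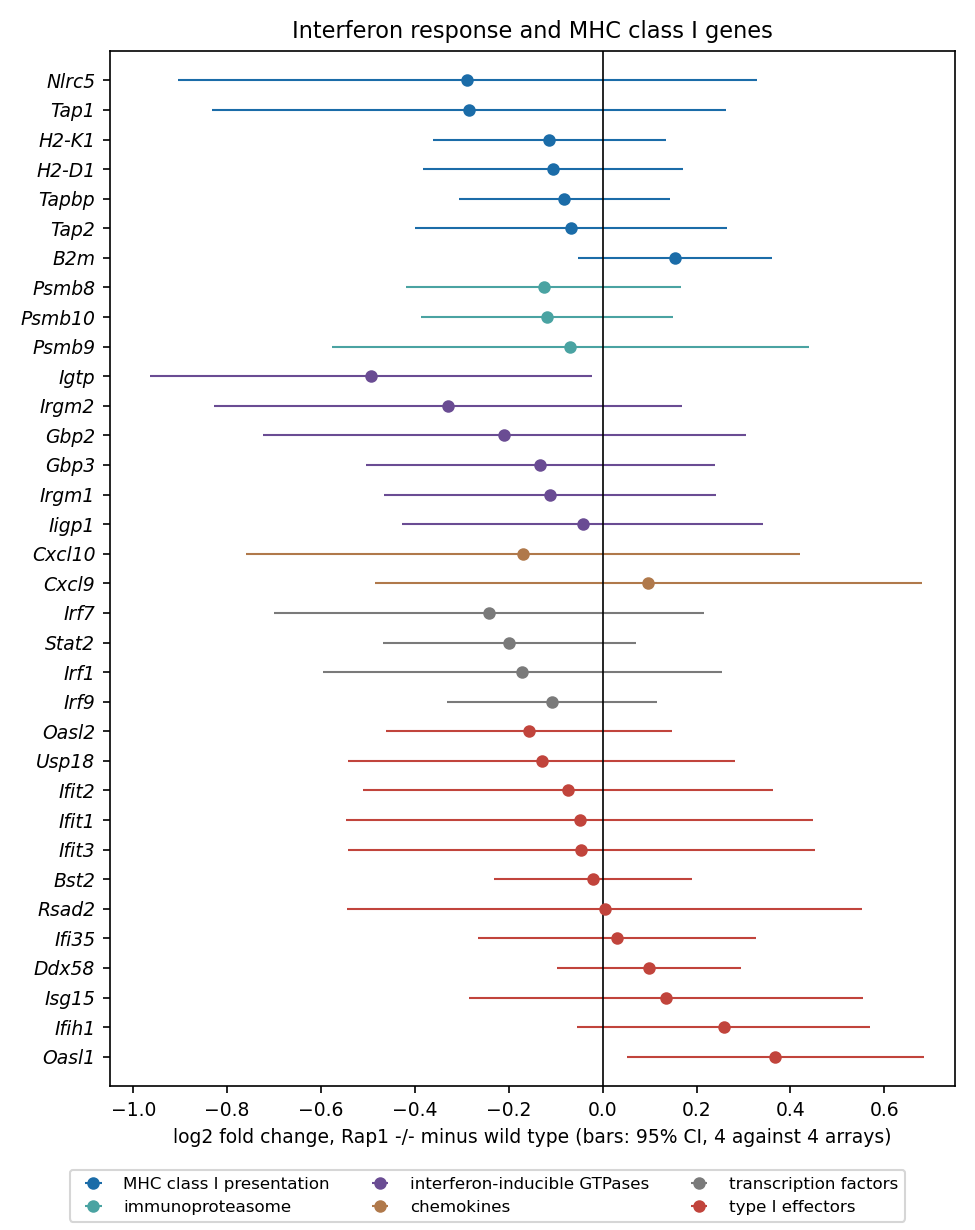
Log2 fold change (x axis, Rap1 -/- minus wild type) of each of the 34 genes, ordered and coloured by role. Points are limma estimates from 4 against 4 arrays and bars are 95% confidence intervals, of which those of Igtp and Oasl1 leave out 0 before adjustment.

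No gene of MHC class I presentation passed the test. Their 7 log2 fold changes had a median of -0.11, and 6 were below 0. The heavy chains H2-K1 and H2-D1, which hold the peptide at the cell surface, had log2 fold changes of -0.11 (SE 0.11) and -0.11 (SE 0.12). H2-K1 read 8.79, 8.63, 8.86 and 8.80 in Rap1 -/- livers 1 to 4, against 9.02, 8.97, 8.87 and 8.67 in wild-type livers 1 to 4. Of the Rap1 -/- livers, 1 was below every wild-type liver and the other 3 lay within the wild-type range. Class I heavy chains are a family of similar genes, and how far a probe reads its neighbours was not tested.

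B2m, the light chain that every class I molecule needs, was the only one of the 7 above 0. It read 8.29, 8.19, 8.21 and 8.15 in Rap1 -/- livers, against 8.16, 7.92, 8.07 and 8.07 in wild-type livers. Of the 4 Rap1 -/- livers, 3 were above every wild-type liver, and the remaining one lay just below wild-type liver 1. Its log2 fold change was 0.15 (SE 0.09, limma adjusted p = 0.816), and the exact two-sided permutation test gave p = 0.0571, where the smallest p that 4 against 4 arrays allow is 0.0286. The difference was 0.20 within slide 1 and 0.11 within slide 2.

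Peptides reach class I through the TAP transporter, built from the products of Tap1 and Tap2, and are loaded with the help of tapasin (Tapbp). Tap1 read -0.62, -0.40, 0.05 and -0.91 in Rap1 -/- livers, against 0.26, -0.05, -0.61 and -0.34 in wild-type livers. Each genotype spread widely, and they overlapped. The log2 fold changes were -0.28 (SE 0.24) for Tap1, -0.07 (SE 0.15) for Tap2 and -0.08 (SE 0.10) for Tapbp.

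Nlrc5, the transactivator of MHC class I genes, was by its brightest probe the gene in which the slides differed most. It read 2.09, 1.56, 2.36 and 2.14 in Rap1 -/- livers, against 2.72, 2.82, 2.02 and 1.73 in wild-type livers. Both wild-type livers on slide 1 were above all Rap1 -/- livers, and both on slide 2 were below 3 of the 4 Rap1 -/- livers. The log2 fold change was -0.29 (SE 0.27) over both slides, -0.95 within slide 1 and 0.37 within slide 2. A dimmer Nlrc5 probe did not share this pattern. It read -1.75, -2.22, -1.54 and -1.47 in Rap1 -/- livers, against -1.93, -1.44, -1.15 and -1.68 in wild-type livers (log2 fold change -0.20). On it wild-type liver 1 lay below Rap1 -/- liver 1, and wild-type liver 3 was the highest.

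The immunoproteasome subunits Psmb8, Psmb9 and Psmb10 replace the constitutive catalytic subunits of the proteasome and change which peptides it makes. Psmb8 read 3.80, 3.82, 4.16 and 3.58 in Rap1 -/- livers, against 4.05, 3.96, 3.93 and 3.92 in wild-type livers. The wild-type livers lay close together, with 3 Rap1 -/- livers below and 1 above all of them. Differences on the log2 scale were -0.13 (SE 0.13) for Psmb8, -0.07 (SE 0.22) for Psmb9 and -0.12 (SE 0.12) for Psmb10.

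**Figure D2:**
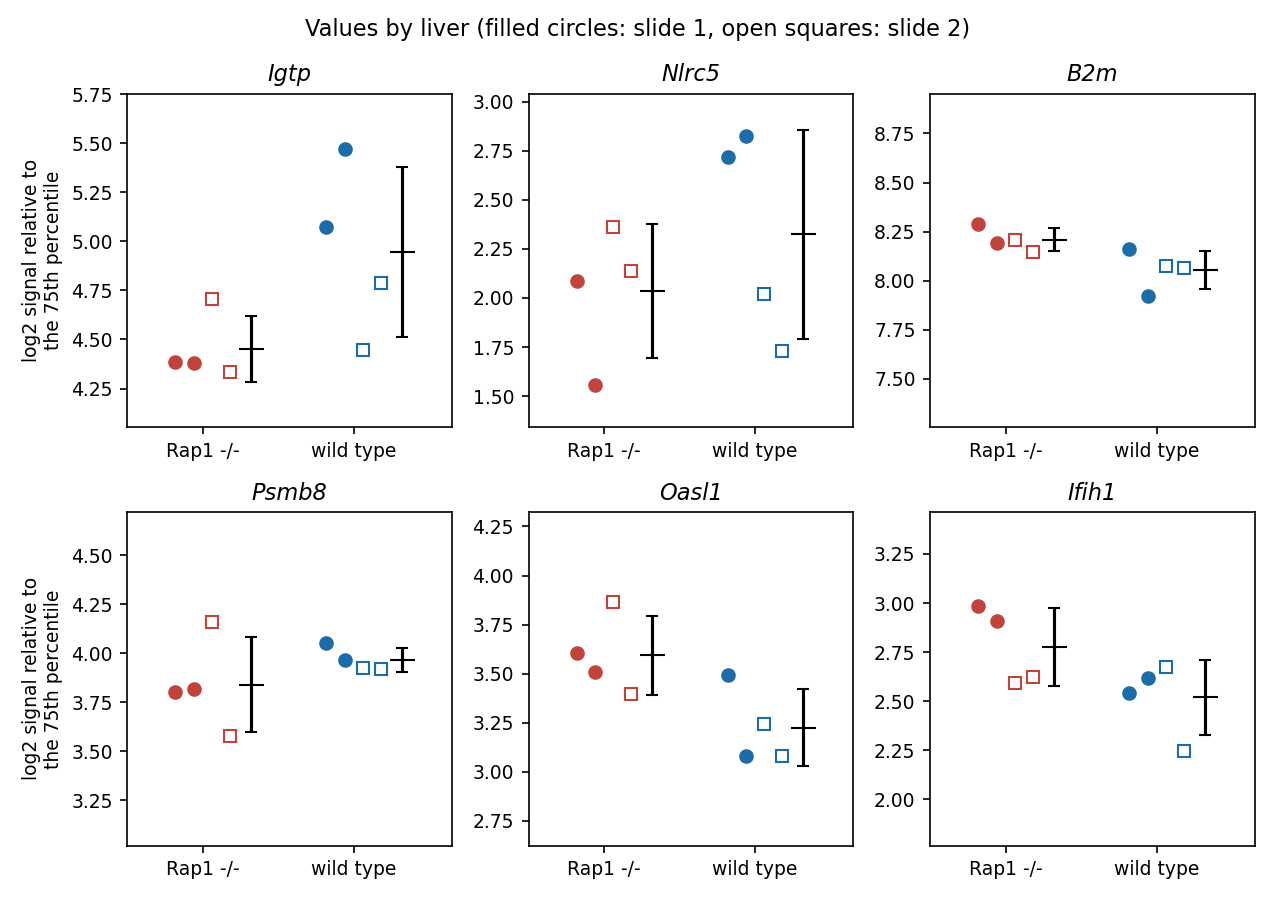
Log2 signal relative to the array's 75th percentile (y axis, panels of equal height) of 6 genes in each liver, Rap1 -/- on the left and wild type on the right of each panel. Filled circles are slide 1, open squares slide 2, and black bars are mean and SD of 4 livers. For Igtp and Nlrc5 the filled wild-type circles stand above the other livers.

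The interferon-inducible GTPases, which attack the vacuoles of intracellular pathogens, held the largest difference in the set. By the brightest probes all 6 log2 fold changes were below 0, with a median of -0.17. Igtp read 4.39, 4.38, 4.70 and 4.33 in Rap1 -/- livers, against 5.07, 5.47, 4.45 and 4.79 in wild-type livers. Of the Rap1 -/- livers, 3 were below every wild-type liver, and liver 3 was above wild-type liver 3. The log2 fold change was -0.49 (SE 0.21, limma unadjusted p = 0.0419, adjusted p = 0.770), and the exact two-sided permutation p was 0.0571. The difference was -0.89 within slide 1 and -0.10 within slide 2.

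Irgm2, a regulatory GTPase of the same family, read 3.54, 3.85, 4.18 and 3.49 in Rap1 -/- livers, against 4.31, 4.43, 3.58 and 4.07 in wild-type livers. Its highest values were those of wild-type livers 1 and 2, as for Igtp. Gbp2 read 0.80, 0.76, 1.30 and 0.25 in Rap1 -/- livers, against 1.09, 1.35, 0.76 and 0.75 in wild-type livers, and the genotypes overlapped. The log2 fold changes were -0.33 (SE 0.22) for Irgm2 and -0.21 (SE 0.23) for Gbp2. Among the other GTPases they were -0.13 (SE 0.16) for Gbp3, -0.11 (SE 0.16) for Irgm1 and -0.04 (SE 0.17) for Iigp1. A dimmer Iigp1 probe had a log2 fold change of 0.04, so the probes of Iigp1 disagreed in direction.

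The 4 transcription factors were all below 0, with a median of -0.19. Stat2 and Irf9 are parts of the complex that binds the ISRE, Irf7 drives the second wave of type I interferon, and Irf1 carries much of the gamma response to class I genes. Stat2 read 3.57, 3.67, 3.42 and 3.59 in Rap1 -/- livers, against 3.65, 3.95, 3.55 and 3.89 in wild-type livers. Only Rap1 -/- liver 3 was below all wild-type livers. The log2 fold change of Stat2 was -0.20 (SE 0.12), and it was -0.18 within slide 1 and -0.22 within slide 2. It was -0.24 (SE 0.20) for Irf7, -0.17 (SE 0.19) for Irf1 and -0.11 (SE 0.10) for Irf9.

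Cxcl9 and Cxcl10 attract T cells through the receptor CXCR3. Cxcl10 read 0.87, 0.80, 1.60 and 0.53 in Rap1 -/- livers, against 1.07, 1.36, 0.59 and 1.46 in wild-type livers. Cxcl9 read 1.55, 1.45, 2.25 and 0.85 in Rap1 -/- livers, against 1.56, 1.32, 1.29 and 1.53 in wild-type livers. Within the Rap1 -/- group both chemokines were highest in liver 3 and lowest in liver 4, so that this group enclosed the wild-type livers. The log2 fold changes were -0.17 (SE 0.26) for Cxcl10 and 0.10 (SE 0.26) for Cxcl9.

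The 12 type I effectors were split evenly, with 6 below and 6 above 0 and a median of -0.01. Oasl1, which in mouse restrains translation of Irf7, read 3.61, 3.51, 3.87 and 3.39 in Rap1 -/- livers, against 3.49, 3.08, 3.24 and 3.08 in wild-type livers. Of the Rap1 -/- livers, 3 were above every wild-type liver, and liver 4 was below wild-type liver 1. The log2 fold change was 0.37 (SE 0.14, limma unadjusted p = 0.0275, adjusted p = 0.770), and the exact two-sided permutation p was 0.0571. The difference was 0.27 within slide 1 and 0.47 within slide 2, so Oasl1 lay on the same side of 0 on both. Its relative Oasl2, an activator of RNA sensing, had a log2 fold change of -0.16 (SE 0.13).

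The cytosolic RNA sensors MDA5 and RIG-I are encoded by Ifih1 and Ddx58. Ifih1 read 2.98, 2.91, 2.59 and 2.62 in Rap1 -/- livers, against 2.54, 2.62, 2.67 and 2.24 in wild-type livers, with the 2 highest values in Rap1 -/- livers 1 and 2. Its log2 fold change was 0.26 (SE 0.14, limma adjusted p = 0.797). A dimmer Ifih1 probe read 0.52 higher in Rap1 -/- livers, with the genotypes apart (limma adjusted p = 0.809 over probes). For Ddx58 the probes disagreed in direction. The brightest read 0.10 (SE 0.09) higher in Rap1 -/- livers, and a dimmer one had a log2 fold change of -0.32 (limma adjusted p = 0.809 over probes).

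The remaining type I effectors lay close to 0. Ifit1, Ifit2 and Ifit3, which bind viral RNA or act beside such binders, had log2 fold changes of -0.05 (SE 0.22), -0.07 (SE 0.19) and -0.05 (SE 0.22). The ubiquitin-like modifier Isg15 and the protease Usp18 that removes it had log2 fold changes of 0.13 (SE 0.19) and -0.13 (SE 0.18). Bst2, which tethers budding virions, had one of -0.02 (SE 0.09), Ifi35 one of 0.03 (SE 0.13) and the antiviral enzyme gene Rsad2 one of 0.00 (SE 0.24).

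**Figure D3:**
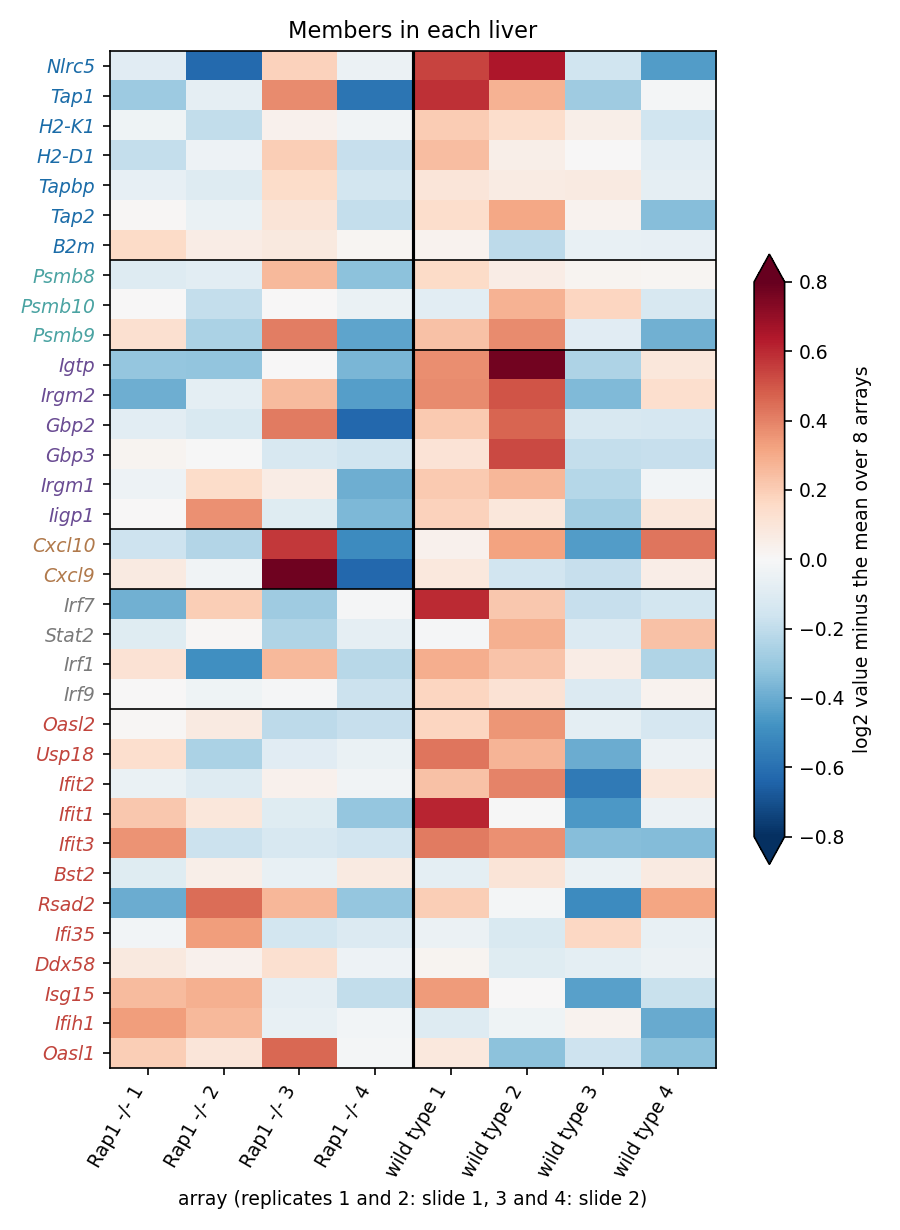
Each gene's log2 value minus its mean over 8 arrays (colour, red above and blue below the mean, with colours ending at 0.8 in either direction) in the 4 Rap1 -/- livers on the left and the 4 wild-type livers on the right. Gene names are coloured by role, and wild-type livers 1 and 2 hold the highest value of 22 of the 34 genes.

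Relative to their own means, gamma-type genes lay lower than type I effectors in 3 of the 4 Rap1 -/- livers. The same held in 1 of the 4 wild-type livers. Of the 16 gamma-type genes 15 were below 0, with a median log2 fold change of -0.12, and of the 12 type I effectors 6 were below 0, with a median of -0.01. The difference of the medians was -0.11. The mean deviation of the gamma-type genes from their own means was -0.08, -0.10, 0.14 and -0.27 in Rap1 -/- livers, against 0.22, 0.29, -0.10 and -0.11 in wild-type livers. That of the type I effectors was 0.08, 0.10, 0.00 and -0.11 in Rap1 -/- livers, against 0.19, 0.07, -0.24 and -0.09 in wild-type livers. In both sets the genotypes overlapped. Gamma-type minus type I, the mean deviation was -0.16, -0.19, 0.14 and -0.16 in Rap1 -/- livers (-0.09 ± 0.16, SD, n = 4), against 0.03, 0.21, 0.14 and -0.01 in wild-type livers (0.09 ± 0.10, SD, n = 4). The genotypes overlapped only through Rap1 -/- liver 3, and no test was made of this score.

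Single livers set much of the pattern. Wild-type liver 1 or 2 held the highest value of 22 of the 34 genes, against 21.0% of all genes, and of 11 of the 16 gamma-type genes. Rap1 -/- liver 4 held the lowest value of 12 of the 34 genes, against 8.50% of all genes. Of these 12 genes, 9 were gamma-type and 0 were type I effectors. Wild-type liver 3 held the lowest value of 5 of the 12 type I effectors, against 5.77% of all genes.

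**Figure D4:**
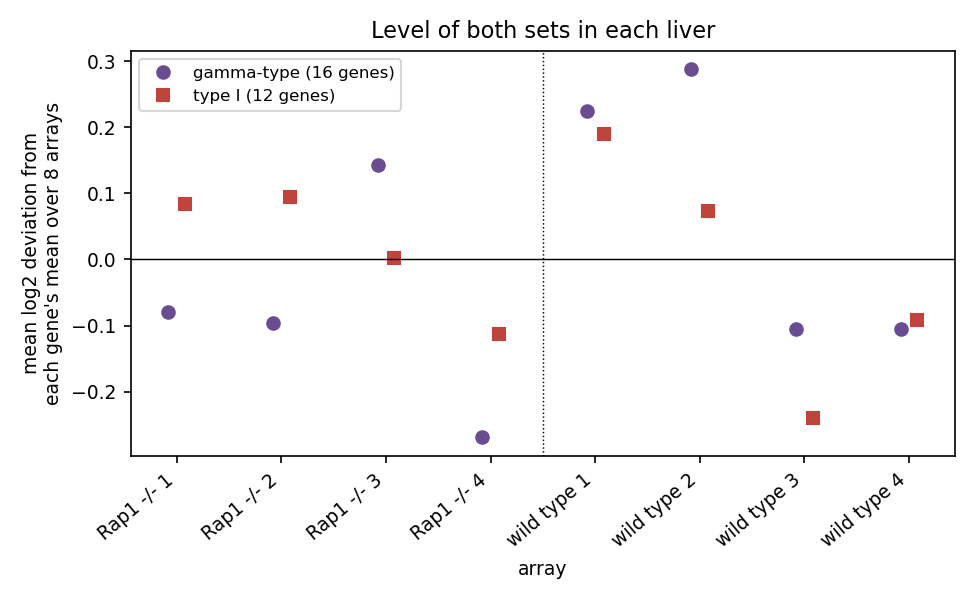
Mean log2 deviation (y axis) of the 16 gamma-type genes (circles) and the 12 type I effectors (squares) from each gene's mean over 8 arrays, in Rap1 -/- livers 1 to 4 on the left and wild-type livers 1 to 4 on the right. The gamma-type genes are highest in wild-type livers 1 and 2 and lowest in Rap1 -/- liver 4.

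The slides differed in the direction of these values. They held different mice, so a difference between slides cannot be told apart from a difference between single livers. Within slide 1, 26 of the 34 genes were below 0 with a median of -0.21, and within slide 2, 11 of the 34 were below 0 with a median of 0.05. For all genes the medians were 0.05 and 0.01. The gamma-type genes had medians of -0.27 (14 of 16 below 0) within slide 1 and 0.03 (6 of 16 below 0) within slide 2, and 5 of the 16 were below 0 on both. The type I effectors had medians of -0.05 and 0.13. A test of the genotype-by-slide interaction, chosen after seeing the data, passed an adjusted p of 0.05 in 0 of the 34 genes and in 0.0% of all genes (limma). At an unadjusted p of 0.05 it passed in Nlrc5 (1.32 higher within slide 2, SE 0.31, adjusted p = 1.00) and Igtp (0.79 higher, SE 0.30), against 3.34% of all genes. The interaction was above 0 in 29 of the 34 genes, against 45.0% of all genes.

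**Figure D5:**
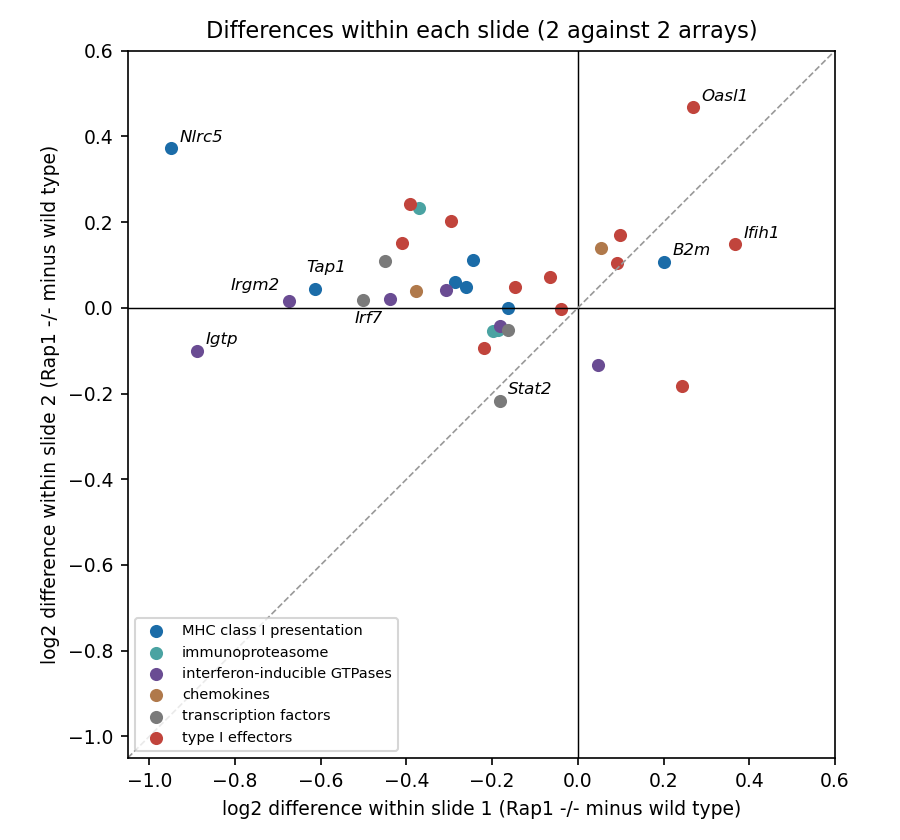
Log2 difference (Rap1 -/- minus wild type, 2 against 2 arrays) of each of the 34 genes within slide 1 (x axis) and within slide 2 (y axis), coloured by role, with the dashed line marking equal differences. Most points lie left of 0 and close to 0 on the y axis, and Nlrc5 is at -0.95 and 0.37.

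Interferon gamma and its receptor were read from the same arrays. The receptor subunit gene Ifngr1 had a log2 fold change of -0.07. Ifng itself had one of -0.56 (SE 0.46), and its probe was well above background on 1 of 4 Rap1 -/- and 3 of 4 wild-type arrays. Ifng thus passed the filter on dim probes mostly through wild-type arrays, where it was higher.

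Genes of the pathway outside the 34 were read from lists, and none of them passed an adjusted p of 0.05 (limma). Of 16 other gamma-inducible genes 15 were below 0, with a median of -0.37, and 3 had an unadjusted p under 0.05 and were lower, by a rule that 2.35% of all genes met. These were Gbp2b, a guanylate-binding protein gene (-0.87, SE 0.26), Tgtp1, an immunity-related GTPase gene (-0.65, SE 0.24), and Ciita, the transactivator of MHC class II (-1.40, SE 0.52). The Ciita probe was well above background on 1 of 4 Rap1 -/- and 3 of 4 wild-type arrays. Ciita thus passed the filter on dim probes mostly through wild-type arrays, where it was higher, so its difference adds no support to the count. The median of these 16 genes was -0.84 within slide 1, with 16 of 16 below 0, and 0.04 within slide 2, with 7 of 16 below 0. It was -0.14 with normexp and quantile normalization, -0.14 in the deposited table, -0.22 with probes well above background on all 8 arrays and -0.22 without wild-type liver 2. Of 27 other type I-inducible genes 13 were below 0, with a median of 0.01, and Samd9l had an unadjusted p under 0.05 (0.34, SE 0.12).

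Among 9 other genes of peptide supply and class I loading, 8 were above 0 and the median was 0.16. This list also held constitutive catalytic subunits of the proteasome, which do not load class I, and the median fell on such a subunit. The median was 0.08 with normexp and quantile normalization, 0.07 in the deposited table and 0.10 without Rap1 -/- liver 4 or without wild-type liver 1. The chaperone genes Pdia3 (0.45, SE 0.10), Calr (0.37, SE 0.11) and Canx (0.24, SE 0.10), which fold many proteins of the endoplasmic reticulum besides class I, had an unadjusted p under 0.05 and were higher, against 4.01% of all genes. Over the 9 genes of this list, the genotypes did not overlap in these 3 alone, against 4.31% of all genes. Since a small p in the same arrays picked these 3, their separation adds no support of its own. The 12 other class I genes had a median of 0.04, and 8 genes of RNA and DNA sensing one of -0.03.

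Markers of most other cell types also lay lower within slide 1 than within slide 2, but those of cholangiocytes and hepatocytes did not. Of 13 tested T and NK cell markers 11 were below 0 (median -0.14), as were 11 of 12 Kupffer cell and macrophage markers (median -0.15) and 5 of 5 neutrophil markers (median -0.70). Within slide 1 these medians were -0.35, -0.34 and -1.58, and within slide 2 they were 0.24, 0.01 and 0.05. The medians of B cell markers were -0.24 and 0.26 within slides 1 and 2, those of dendritic cell markers -0.11 and 0.00, those of sinusoidal endothelial cell markers -0.11 and 0.22, and those of stellate cell markers -0.03 and 0.19. Those of cholangiocyte markers were 0.45 and 0.20, and those of hepatocyte markers -0.04 and -0.07. The neutrophil median was -0.20 with normexp and quantile normalization and in the deposited table, -0.42 with probes well above background on all 8 arrays, and -0.36 without wild-type liver 1. With single livers left out, the T and NK cell median came closest to 0 without Rap1 -/- liver 2 (-0.02) and the Kupffer cell and macrophage median without Rap1 -/- liver 1 (-0.01). The summed relative level of the 15 T and NK cell markers on the array was between 44.0 and 52.7 in Rap1 -/- livers, against 44.8 to 71.0 in wild-type livers. Such sums are on the linear scale, so the brightest genes weigh most in them. Cd4 was the brightest of these markers and read 5.68 in wild-type liver 1, which had the highest sum. That of 12 Kupffer cell and macrophage markers was between 165 and 278 in Rap1 -/- livers, against 211 to 291 in wild-type livers. That of 9 neutrophil markers was between 6.57 and 10.3 in Rap1 -/- livers, against 7.06 to 18.5 in wild-type livers, where wild-type livers 1 and 2 had 18.5 and 13.4. Ltf, a neutrophil marker, was well above background on no array. Dendritic cell markers summed to between 326 and 362 in Rap1 -/- livers, against 320 to 382 in wild-type livers, with Xcr1 well above background on no array. At least 99.4% of that sum came from Siglech and Bst2, and Bst2 is itself one of the 34 genes. Without it the sum was between 243 and 286 in Rap1 -/- livers, against 234 to 305 in wild-type livers. Nearly all of this remainder came from Siglech, so it says little about the other dendritic cell markers. The sums for B cells were between 2.36 and 3.89 in Rap1 -/- livers, against 2.61 to 3.94 in wild-type livers, with Pax5 well above background on no array. The 8 hepatocyte markers summed to between 5017 and 5154 in Rap1 -/- livers, against 5398 to 6023 in wild-type livers, without overlap. Yet only 4 of the 8 were below 0, and the median of the 8 was -0.03. Alb (-0.21) and Serpina1c (-0.20), the brightest of the 8, weigh most in this sum and are among those 4. Cholangiocyte markers summed to between 4.16 and 8.09 in Rap1 -/- livers, against 3.41 to 4.79 in wild-type livers (median 0.41). Sums for sinusoidal endothelial cells (83.9 to 119 in Rap1 -/- livers, 83.6 to 113 in wild-type livers) and for stellate cells (115 to 134 in Rap1 -/- livers, 111 to 124 in wild-type livers) overlapped. The part of these cells in the values of the interferon genes was not tested.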

How the data were processed

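Liver RNA of 4 Rap1 -/- and 4 wild-type mice was read on 1-colour Agilent arrays. Per the file headers, the deposited spot values are intensity values on a linear scale, extracted with Feature Extraction 10.7.3.1 and already background-subtracted. A log2 table was deposited as well, and limma is named in the submitters' processing notes. Normexp (offset 50) with quantile normalization gave that table's values to within 0.05 for 99.5% of them (column medians 6.39 to 6.40).

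Outlier spots were left out, repeated spots were averaged, and each array's 75th percentile was subtracted on the log2 scale. That percentile was 220 to 227 in Rap1 -/- and 179 to 209 in wild-type arrays, the share of probes well above background was 50.0% to 65.3%, and no saturated spot was found. The labels give RNA integrity only as a range (6.5 to 8.5). Symbols were assigned to 26056 of 55681 probes through the accessions of the GRCm38.p6 RefSeq annotation. The array's own annotation is mm9, so coordinates are those of the promoter table.

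Probes well above background on at least 4 of 8 arrays were tested, with the brightest probe for each gene. The genotypes were compared with limma 3.58.1 (lmFit, eBayes) in R 4.3.3 without covariates, adjusted by Benjamini-Hochberg over 14066 genes at 0.05. Exact two-sided permutation tests ran over 70 partings of the arrays. On simulated data of 14062 genes, of which 200 were changed, 72.6% of 2-fold and 94.6% of 4-fold changes were recovered. The simulated noise was independent between genes, and the adjusted threshold is looser with 200 changed genes than with the 2 called here. These shares are therefore not the power for a single gene in this experiment. The number of arrays limits the precision.

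The 34 genes and all lists were chosen with earlier results of these data known. Every gene of the set is named. Values in every array are given for genes with an unadjusted p under 0.05 and for those with the smallest p in each role, at most 3 to a role, and for a few others chosen after their values were seen. Of each pathway list, up to 3 genes with the smallest p are named, plus Ifngr1 and Ifng, and 1 further gene that this rule names is not reported here.

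Alternatives were other background correction and normalization, the deposited table, other filters on dim probes, the mean of a gene's probes, another variance prior, slide and replicate number as blocks, each slide alone, and each array left out. The normexp alternative used the median spot signal, as the files hold no mean signal.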

Additional observations from a re-analysis of the deposited data

Results flagged for a closer look

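Of 68 groups of 4 livers (34 genes in each genotype), 2 held a liver that stood far from the others by Dixon's criterion, and chance alone gives about 1 in 20 such groups. Igtp was 4.705 in Rap1 -/- liver 3, and the nearest Rap1 -/- liver was at 4.387. Ifit3 was 2.613 in Rap1 -/- liver 1, and the nearest Rap1 -/- liver was at 2.126.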

How the results depend on the processing

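No gene of the 34 passed an adjusted p of 0.05 under any alternative (limma). The count at an unadjusted p of 0.05, 2 as reported, was 1 with quantile normalization of the processed signal, 1 with cyclic loess, 1 without a filter on dim probes, 3 with the mean of a gene's probes (Ifih1 added), 4 within slide 1 (Tap1, Nlrc5, Igtp and Irgm2) and 0 within slide 2. Leaving out 1 liver at a time gave 0 to 3, with 0 without Rap1 -/- liver 1 and 0 without wild-type liver 2. Normexp with quantile normalization and the deposited table gave 2 each, Igtp and Stat2. Oasl1 kept a log2 fold change of 0.31 to 0.32 but had unadjusted p-values of 0.0525 with normexp and quantile, 0.0531 in the deposited table, 0.0714 with quantile alone and 0.0644 with cyclic loess (limma). With the replicate number as a block the count was 1 (Oasl1). The numbers did not pair the livers: deviations of same-numbered livers correlated between -0.18 and 0.10, and 0 of 8 arrays correlated best with their own number.

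The median of the gamma-type genes was -0.27 within slide 1 and 0.03 within slide 2, and -0.19 to -0.05 with single livers left out. The gamma-type minus type I difference was -0.20 to -0.04 with single livers left out. Within slide 2, 17 of the 34 genes changed sign, and without wild-type liver 2, 8 did. The number of livers, 4 to a genotype, sets the width of the printed confidence intervals.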
